A study of Homo sapiens with 15 samples.

Results

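The first 8 hours after induction of a hairpin against CDK2 were examined by comparing the 3 arrays labelled 8 with the 3 labelled 0, which are 6 of the 15 arrays of the series, over all probe sets of the array. The cells were IMR32, an established human neuroblastoma line with amplified MYCN. All 6 arrays come from 1 clone of this line that carries both the tetracycline repressor (pcDNA6/TR, driven by the constitutive CMV promoter) and a pTER construct with a hairpin directed at the stretch from nucleotide 546 to 566 in the CDK2 mRNA. The 0 h cells are that clone before induction and the 8 h cells the same clone after doxycycline (100 ng/ml) had switched the hairpin on. RNA was measured on Affymetrix U133 Plus 2.0 arrays. Times carry no unit in the labels and are taken as hours from what is known of the study. Each array is 1 replicate, and the labels do not say whether the 3 arrays of a time came from separate cultures, so the p-values cover array-to-array spread, which may be technical, and no more. The samples include no later time without doxycycline and no other hairpin, so doxycycline, time in culture and the hairpin's action cannot be told apart.

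CDK2 is a protein kinase that E-type and A-type cyclins switch on as cells start and carry out DNA replication. A short hairpin RNA is exported from the nucleus, cut by Dicer and loaded into the Argonaute complex, which cleaves matching mRNA. A change in mRNA can precede the loss of the protein, since a protein already made is removed only by its own turnover. The comparison asks which transcripts had changed at the earliest time sampled after induction.

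One array stood apart. On 8 h replicate 3 the spike-in control Dap, an RNA added before labelling, read 1142.2, against 490.8 to 519.9 on the other five arrays of these times, and the Lys, Phe and Thr spike-ins were also at their highest of all 15 arrays there. In 413 probe sets this array lay below all 14 others and more than 1 log2 unit below their median, against 57 to 81 probe sets for the 0 h arrays and 29 to 46 for the other 8 h arrays. Among the later arrays, 72 h replicate 3 had more, 742, and 72 h replicates 1 and 2 had 159 and 174. Those arrays also enter the shared estimate of spread. MALAT1, a long nuclear noncoding RNA named after its values were seen, shows the low readings of 8 h replicate 3. Its probe set 224567_x_at read 3107.8, 3238.2 and 2755.6 at 0 h and 4327.9 and 3796.7 on 8 h replicates 1 and 2, but 192.7 on replicate 3. Of the 12 MALAT1 probe sets, 10 were lower on this array than on any of the 14 others. Counts are therefore also given without it.

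CDK2 itself had fallen by 8 h. The probe set with the highest mean, 204252_at, read 245.5, 236.0 and 213.7 at 0 h and 100.8, 92.6 and 90.2 at 8 h, in MAS5 signal units, an intensity scaled by the authors to the same trimmed mean on every array. Every 8 h array lay below every 0 h array, at 43.5%, 40.0% and 38.9% of the 0 h mean. On the scale used for all tests, log2(signal + 16), the change was -1.16 ± 0.14 (SE, n = 3 and 3; limma adjusted p = 4.6e-04). The pseudocount of 16 makes such changes smaller for dim probe sets, and the log2 ratio of the plain mean signals was -1.29. An exact two-sided permutation test over the 6 arrays gave p = 0.1, the smallest that 3 against 3 arrays allow. A further probe set, 211804_s_at, read 117.0, 115.1 and 89.7 at 0 h and 41.2, 64.3 and 18.0 at 8 h, a change of -1.19 ± 0.24 that missed the threshold in the fit over probe sets (limma adjusted p = 0.053). The remaining CDK2 probe set, 211803_at, stayed under 10 on all 6 arrays and below the filter.

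**Figure D1:**
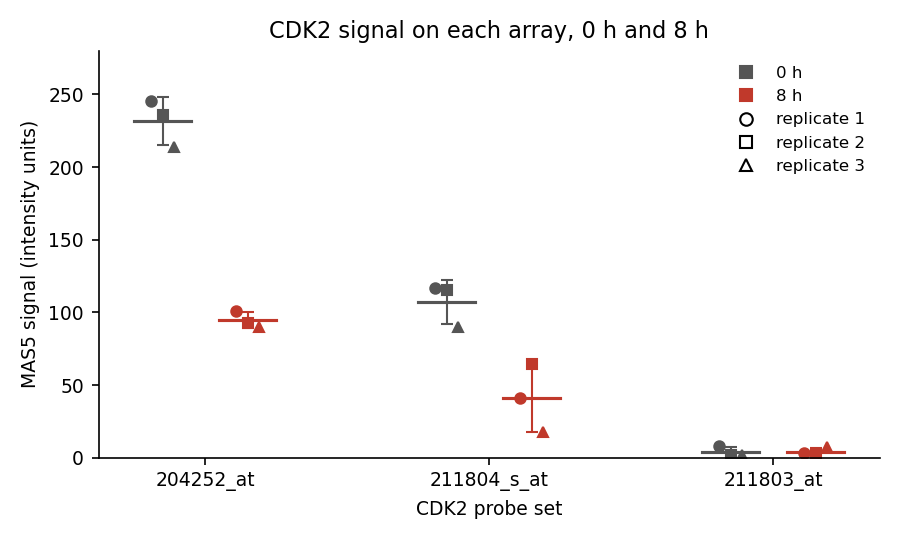
MAS5 signal of the 3 CDK2 probe sets on each 0 h array (grey) and 8 h array (red), with marker shape for the replicate, horizontal bars for the mean and error bars for the SD (n = 3). The 8 h arrays of 204252_at sit between 90.2 and 100.8, all below the 0 h arrays at 213.7 to 245.5, and 211803_at is near 0 in both groups.

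Few other transcripts were detected as changed. Of 11774 genes tested, 53 passed an adjusted p of 0.05 and are spoken of as called (0.450% of the genes), 42 lower (0.357%) and 11 higher (0.0934%). At an unadjusted p under 0.05, 393 genes were lower (3.34%) and 723 higher (6.14%). In 652 genes (5.54%) all 8 h arrays lay below all 0 h arrays, and in 1214 (10.3%) all lay above. The median change over all genes was 0.02, and 98.9% of genes had an absolute log2 change under 0.5. The standard error of a gene's change had a median of 0.12 (5th to 95th percentile 0.074 to 0.22), so changes well under 0.5 were mostly not detectable with 3 arrays a group. The count of 53 moved with single arrays: it was 25, 20 and 32 without 0 h replicate 1, 2 or 3, and 30, 24 and 47 without 8 h replicate 1, 2 or 3. Without 8 h replicate 3, the 47 were 40 lower and 7 higher, and 40 of them (37 lower, 3 higher) were among the 53, with CDK2 at -1.14. MALAT1, the third gene with an absolute change over 1 beside CDK2 and RAB7A, did not pass (-1.01, limma adjusted p = 0.71) and stood at 0.42 without that array (adjusted p = 0.55). Of the 42 genes called lower, 17 passed in all 6 of these fits, and of the 11 called higher, 0 did.

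**Figure D2:**
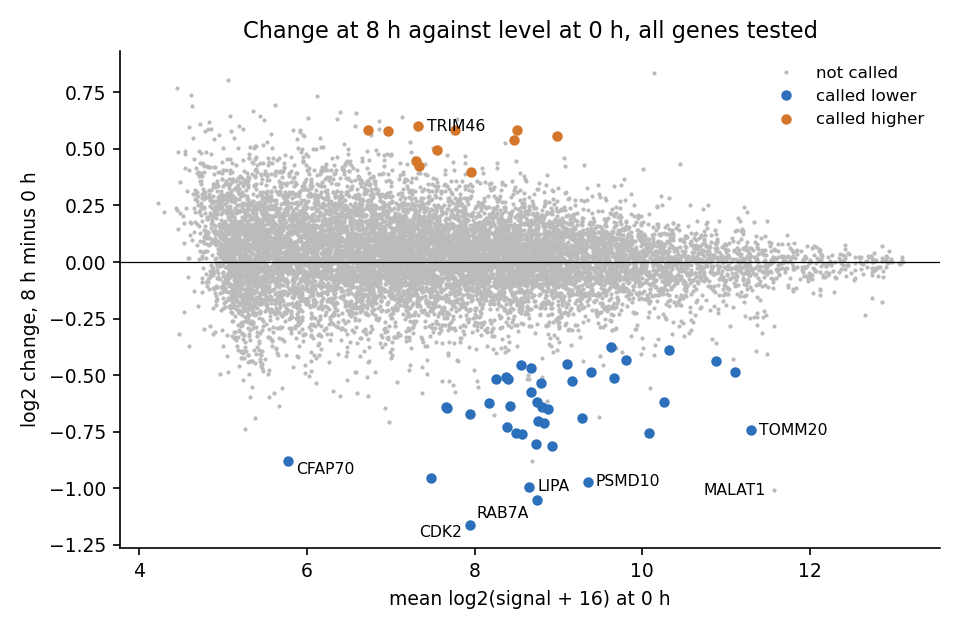
Each point is 1 of the 11774 genes tested, with its mean log2(signal + 16) over the 3 arrays at 0 h on the horizontal axis and its log2 change at 8 h on the vertical axis. Blue marks the 42 genes called lower, orange the 11 called higher, and grey the rest, which include MALAT1 at -1.01.

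The 42 lower genes stood at 36.5% to 76.6% of their 0 h signal (median 62.9%), with a median log2 change of -0.64. Their median deviation from the 0 h mean was -0.62, -0.62 and -0.57 on the 3 arrays at 8 h. CDK2 and RAB7A alone exceeded a log2 change of 1 among called genes. The genes are taken here by the known role of their products, a grouping made after the calls, which carries no test.

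RAB7A, the GTPase that directs late endosomes to lysosomes, read 393.4, 389.9 and 462.3 at 0 h and 197.8, 164.1 and 216.5 at 8 h. The highest 8 h array stood well under the lowest 0 h array. The groups were apart in all 42 lower genes, which were chosen on these same arrays. Over all genes tested, all 8 h arrays lay below all 0 h arrays in 5.54%. Its change was -1.05 ± 0.11 (SE, n = 3 and 3; limma adjusted p = 1.4e-04), and a further probe set, 211960_s_at, changed by -1.06 (adjusted p = 1.4e-04 among probe sets), while 3 dim ones past the filter changed by -0.14 to -0.24 and did not pass. LIPA, the lysosomal acid lipase that frees cholesterol and fatty acids from lipoprotein lipids, read 369.2, 425.1 and 367.7 at 0 h and 213.3, 169.3 and 178.8 at 8 h (-0.99 ± 0.099, limma adjusted p = 1.2e-04, the lowest of all genes). PIP4P2, a phosphoinositide phosphatase of late endosomes and lysosomes, read 157.4, 188.7 and 144.9 at 0 h and 68.4, 83.4 and 77.4 at 8 h (-0.96 ± 0.17, limma adjusted p = 0.0096). RAB7A and LIPA passed in all 6 fits that left out 1 array, and PIP4P2 in 4. AP5M1, a subunit of the endosomal adaptor complex AP-5, changed by -0.52 ± 0.08 and TSPAN3, a tetraspanin membrane protein, by -0.44 ± 0.072.

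Promoter sequences of 3 of the lower genes are printed because these genes had the greatest falls after CDK2 among those in the RefSeq promoter table (GRCh38.p14). Each line gives the 250 bases before the annotated start, 5′ to 3′ on the gene's strand, for RAB7A (chr3:128725933-128726182, plus strand), LIPA (chr10:89414680-89414929, minus strand) and PSMD10 (chrX:108091543-108091792, minus strand). Capitals mark matches, on either strand, to an E-box, searched as CACGTG, and likewise to the box named by its letters CCAAT. They also mark the GC box, searched as GGGCGG, and the core bound by ETS factors, searched as CCGGAAG. None of these overlap each other in the printed windows.
RAB7A: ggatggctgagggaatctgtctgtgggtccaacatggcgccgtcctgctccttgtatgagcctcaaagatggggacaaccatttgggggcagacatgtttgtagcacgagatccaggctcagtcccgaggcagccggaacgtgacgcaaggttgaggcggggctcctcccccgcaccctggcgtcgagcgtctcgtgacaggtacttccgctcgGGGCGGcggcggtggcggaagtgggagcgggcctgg
LIPA: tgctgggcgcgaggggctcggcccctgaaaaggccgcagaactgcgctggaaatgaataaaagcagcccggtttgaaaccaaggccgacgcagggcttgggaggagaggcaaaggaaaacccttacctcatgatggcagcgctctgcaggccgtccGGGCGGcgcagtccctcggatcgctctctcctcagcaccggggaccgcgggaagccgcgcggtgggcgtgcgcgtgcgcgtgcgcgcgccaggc
PSMD10: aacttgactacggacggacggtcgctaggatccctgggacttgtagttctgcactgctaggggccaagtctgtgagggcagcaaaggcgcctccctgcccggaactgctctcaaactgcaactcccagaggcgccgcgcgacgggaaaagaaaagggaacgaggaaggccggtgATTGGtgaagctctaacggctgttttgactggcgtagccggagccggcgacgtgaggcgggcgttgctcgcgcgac
RAB7A and LIPA each hold 1 GC box and PSMD10 holds 1 CCAAT box. Over windows from 250 bases before to 50 after the start, 33 of the 42 lower genes, 10 of the 11 higher genes and 9657 of the 11774 genes tested were in the table. The GC box was found in 69.7% of windows of the lower genes, 70% of those of the higher genes and 70.7% of those of all genes tested. The E-box was found in 12.1%, 20% and 10.8%, the CCAAT box in 33.3%, 30% and 37.1%, and the ETS core in 15.2%, 10% and 19.7%. The 20% is 2 windows. Median GC content was 65% in the lower, 68.3% in the higher and 65.7% in all. The letters searched were thus about as frequent in the lower genes as in the genes tested, and a match is a description of the sequence only.

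Genes of protein folding and degradation were also lower. PSMD10, also known as gankyrin and an assembly chaperone of the proteasome's regulatory particle, read 682.5, 619.6 and 608.7 at 0 h and 346.4, 285.5 and 321.2 at 8 h. The groups did not overlap, as in all 42 lower genes, which were chosen on these same arrays. Its change was -0.97 ± 0.13 (SE, n = 3 and 3; limma adjusted p = 0.0011), and its probe set 1554577_a_at went from 552.6, 541.5 and 517.1 to 244.0, 211.3 and 200.4 (-1.24 ± 0.1, adjusted p = 2.2e-05, the lowest of all probe sets). BAG3, a co-chaperone of HSP70, changed by -0.70 ± 0.12 and SGTB, a co-chaperone with tetratricopeptide repeats, by -0.45 ± 0.092. DNAJC6 (auxilin), which removes clathrin coats, changed by -0.48 ± 0.099, CLGN, an endoplasmic reticulum chaperone, by -0.62 ± 0.11, TOR1B, a torsin ATPase of the endoplasmic reticulum and nuclear envelope, by -0.65 ± 0.1, and the ubiquitin ligase RNF138 by -0.51 ± 0.09.

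Several lower genes encode mitochondrial proteins. IDH3A, the catalytic alpha subunit of the NAD-dependent isocitrate dehydrogenase of the citric acid cycle, read 358.2, 364.2 and 366.8 at 0 h and 215.2, 202.3 and 205.8 at 8 h (-0.76 ± 0.092, limma adjusted p = 4.6e-04). Both groups were tight and far apart, though the gene was chosen on these same arrays. TOMM20, a receptor of the outer membrane's import complex, read 2762.5, 2699.7 and 2087.4 at 0 h and 1410.2, 1369.7 and 1692.6 at 8 h (-0.74 ± 0.11, limma adjusted p = 0.0021), and its probe set 212773_s_at changed by -0.81 ± 0.09. MRPL48, a mitochondrial ribosomal protein, changed by -0.58 ± 0.1, METTL8, a methyltransferase of mitochondrial tRNA, by -0.67 ± 0.12, and TRAK2, which couples mitochondria to motor proteins, by -0.62 ± 0.093. KIFBP, which binds kinesins and limits their attachment to microtubules, read 418.8, 457.3 and 420.5 at 0 h and 268.1, 260.8 and 286.5 at 8 h (-0.64 ± 0.087, limma adjusted p = 0.0011).

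Nuclear proteins formed a further group. HMGN4, a nucleosome-binding protein, read 631.4, 631.5 and 557.0 at 0 h and 368.0, 414.1 and 330.5 at 8 h (-0.69 ± 0.091, limma adjusted p = 9.3e-04). All 3 of its probe sets passed, at -0.69, -0.74 and -0.76. EID1, which binds the retinoblastoma protein and inhibits acetylation by p300, changed by -0.62 ± 0.11 (limma adjusted p = 0.011), and its 3 probe sets all passed, at -0.62, -0.69 and -1.0. SPIN4, of the spindlin family of histone readers, changed by -0.71 ± 0.13, RYBP, a subunit of Polycomb repressive complexes, by -0.45 ± 0.078, MED28, a Mediator subunit, by -0.51 ± 0.075, and ABT1, which acts with the basal transcription machinery, by -0.64 ± 0.12. ZWILCH, a kinetochore protein of the spindle checkpoint, had the smallest change of the lower genes, -0.38 ± 0.071, from 796.8, 752.2 and 770.6 at 0 h to 597.2, 571.6 and 608.1 at 8 h (limma adjusted p = 0.018).

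Membrane traffic, the cell surface and lipid handling account for most of the rest. HS6ST2, which adds sulfate to heparan sulfate, read 316.6, 335.6 and 305.9 at 0 h and 177.4, 196.4 and 184.4 at 8 h (-0.73 ± 0.092, limma adjusted p = 5.8e-04). NPTN, the adhesion molecule neuroplastin, read 1132.1, 1138.1 and 944.5 at 0 h and 573.1, 596.4 and 719.6 at 8 h (-0.75 ± 0.11, limma adjusted p = 0.0021). ARF4, a GTPase of the Golgi, changed by -0.49 ± 0.082, GOLGA7, a subunit of a protein palmitoyltransferase, by -0.52 ± 0.082, GALNT7, a glycosyltransferase that starts or extends O-glycans, by -0.52 ± 0.11, PLEKHA8, a lipid transfer protein of the Golgi, by -0.52 ± 0.11, the choline transporter SLC44A1 by -0.64 ± 0.12, and LIN7C, a scaffold of cell polarity complexes, by -0.81 ± 0.13. The last members were CFAP70 (-0.88), a cilium protein whose dim probe set has x_at design and read 6.6 to 18.9 at 8 h, DCPH1 (-0.80), PM20D2 (-0.76), ANKRD46 (-0.65), TMEM263 (-0.53), TMEM245 (-0.47), NUDT19 (-0.43) and AASDHPPT (-0.39), which attaches phosphopantetheine to carrier proteins.

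The calls held unequally when arrays were left out. The 17 lower genes that passed in all 6 fits were CDK2, RAB7A, LIPA, PSMD10, DCPH1, IDH3A, NPTN, TOMM20, HS6ST2, HMGN4, ANKRD46, TOR1B, KIFBP, TRAK2, GOLGA7, AP5M1 and MED28. CFAP70, GALNT7 and PLEKHA8 passed in 0 of them, although their direction held. Other probe sets of the same genes were read on the same arrays, so they are no independent evidence. Of the 42 lower genes, 27 had at least 1 other probe set past the filter, 54 in all, of which 44 were also lower and 14, from 12 genes, passed in the fit over probe sets. The median change of the 54 was -0.44, and over all probe sets tested 0.212% were called lower. For 15 of the 27 genes no other probe set passed.

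**Figure D3:**
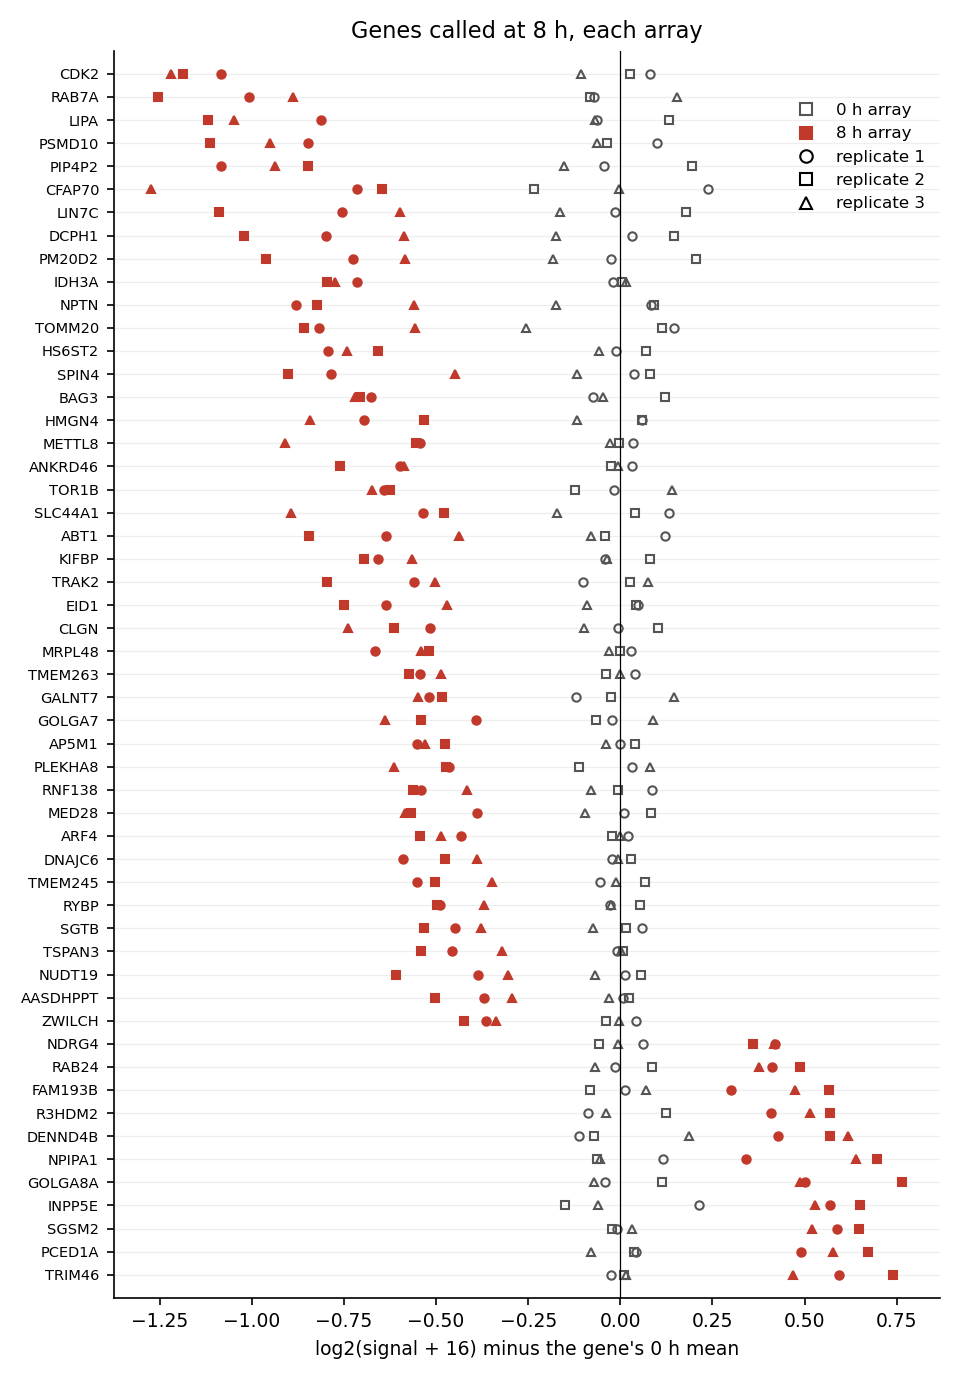
Each row is 1 of the 53 genes called at 8 h, ordered by change, and each marker 1 array, as log2(signal + 16) minus the gene's mean over the 0 h arrays. Open grey markers are 0 h arrays, filled red markers 8 h arrays, and shapes give the replicate. In all 53 genes the 3 red markers lie outside the range of the 3 grey ones. The genes were chosen on these same arrays, so this separation is no added evidence. Over all genes tested, all 8 h arrays lay below all 0 h arrays in 5.54% and above them in 10.3%.

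The 11 higher genes stood at 134% to 158% of their 0 h signal (median 149%), with a median log2 change of 0.56. TRIM46, which organises microtubules at the start of the axon, read 142.2, 145.9 and 146.7 at 0 h and 226.7, 252.6 and 206.8 at 8 h (0.60 ± 0.12, limma adjusted p = 0.037). RAB24, a small GTPase linked to autophagy, read 143.5, 155.1 and 137.6 at 0 h and 198.3, 210.1 and 193.1 at 8 h (0.42 ± 0.082, limma adjusted p = 0.023). The groups of both genes did not overlap, as in all 11 higher genes, which were chosen on these same arrays. Over all genes tested, all 8 h arrays lay above all 0 h arrays in 10.3%. R3HDM2, a protein with a nucleic acid-binding R3H domain, had the lowest adjusted p of the higher genes, going from 160.5, 188.3 and 166.6 to 232.9, 261.9 and 251.7 (0.50 ± 0.086, limma adjusted p = 0.0095). NDRG4, of the family of N-myc downstream-regulated genes, read 243.7, 223.0 and 231.7 at 0 h and 316.7, 302.9 and 316.1 at 8 h (0.40 ± 0.085, limma adjusted p = 0.043). It passed in 0 of the 6 fits without 1 array, TRIM46 and RAB24 in 1 each and R3HDM2 in 3.

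Other higher genes were INPP5E, a phosphoinositide phosphatase of the primary cilium (0.58 ± 0.12), SGSM2, which acts on RAB GTPases (0.58 ± 0.12), DENND4B, a nucleotide exchange factor of RAB GTPases (0.54 ± 0.1), PCED1A (0.58 ± 0.11) and FAM193B (0.45 ± 0.093). GOLGA8A (0.58 ± 0.12) and NPIPA1 (0.56 ± 0.12) belong to families of near-identical copies and were read by x_at probe sets, which can bind several transcripts, so which copy was measured is uncertain. Of the 11 genes, 5 had other probe sets past the filter, 6 in all, of which 5 were higher and 0 passed, with a median change of 0.15. The exception in direction was 220909_at of TRIM46, at -0.19. Of the probe sets standing for the 11 genes, those of RAB24, R3HDM2, DENND4B and PCED1A passed in the fit over probe sets. The others did not (limma adjusted p = 0.053 to 0.078).

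Of 27307 probe sets tested one by one, 66 passed (0.242%), 58 of them lower (0.212%). Of these, 52 belonged to 38 of the genes already named. The other 14 included lower probe sets of SLC4A7, a sodium bicarbonate cotransporter (75.2, 85.9 and 82.4 at 0 h, 35.4, 44.8 and 42.3 at 8 h, log2 change -0.78), the signalling adaptor CRKL (-0.77), the ubiquitin ligase subunit RMND5A (-0.76), a probe set naming UBE2V1, PEDS1 and their readthrough transcript (-0.68), and GUF1, a GTPase of mitochondrial translation (-0.57). For SLC4A7, CRKL, RMND5A and GUF1 the brighter probe set that stood for the gene changed less, by -0.35, -0.17, -0.26 and -0.17, and did not pass. The 4 higher ones were SCN3B, a sodium channel subunit (97.1, 102.0 and 88.4 at 0 h, 150.5, 142.3 and 150.2 at 8 h, 0.55), 2 that name 7 genes of the NPIPA family region (0.63 and 0.65) and 1 without a gene name (0.65). The remaining ones, named after their values were seen, were UBE2K (-0.56) and UBE2F (-0.52), conjugating enzymes for ubiquitin and NEDD8, glutamine synthetase GLUL (-0.56), the translocon-associated SSR1 (-0.53) and 1 unnamed (-0.52). For these 4 named genes and SCN3B, too, the probe set that stood for the gene changed less and did not pass: UBE2K by -0.20, UBE2F by -0.34, GLUL by -0.12, SSR1 by -0.33 and SCN3B by 0.30 (limma adjusted p = 0.18 to 0.69). In CRKL, RMND5A and GUF1, 8 h replicate 3 was the lowest of the 8 h arrays, at 66.6, 26.9 and 117.2.

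The cell cycle machinery around CDK2 showed no called change. Of 31 measured cyclins, CDKs, CDK inhibitors and pocket proteins other than CDK2, 0 passed, with a median of 0.05, against 0.02 over all genes tested. At an unadjusted p under 0.05 limma gave 3 positive (9.68%) and 1 negative change (3.23%), against 6.14% and 3.34% of all genes tested. CCNE1 and CCNE2, which encode the E cyclins that pair with CDK2 before S phase, changed by -0.14 ± 0.098 and -0.07 ± 0.16. CCNA2, encoding cyclin A2, changed by 0.13 ± 0.13, CCND1 by 0.07 ± 0.082, CDK1 by 0.24 ± 0.22, CDK4 by 0.06 ± 0.068 and CDK6 by -0.02 ± 0.11 (limma adjusted p = 0.79 to 0.98 for these). CDKN1A, the p21 inhibitor of CDKs, read 564.4, 505.5 and 522.4 at 0 h and 748.8, 617.7 and 626.6 at 8 h. All 8 h arrays were higher, as in 10.3% of all genes tested, but the change of 0.31 ± 0.096 did not pass (limma adjusted p = 0.24). CDKN1B, the p27 inhibitor, changed by 0.34 ± 0.12, the pocket protein gene RBL2 by 0.34 ± 0.1 and RB1 by -0.23 ± 0.11 (limma adjusted p = 0.33, 0.22 and 0.55), while E2F3 changed by -0.18 ± 0.085.

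Among 44 measured G1/S and DNA replication genes, 0 passed and the median was 0.02. At an unadjusted p under 0.05 limma gave 2 with a rise (4.55%) and 6 with a fall (13.6%), against 6.14% and 3.34% of all genes tested. The most negative changes were PRIM2, a primase subunit (-0.42 ± 0.14), and GINS3, of the replicative helicase complex (489.0, 476.3 and 454.7 at 0 h, 353.2, 299.9 and 422.2 at 8 h, -0.40 ± 0.12, limma adjusted p = 0.23). LIG1, DNA ligase 1, changed by 0.33 ± 0.12 and E2F2 by 0.23 ± 0.13. PCNA, the sliding clamp of replication, changed by 0.02 ± 0.067 and E2F1 by 0.00 ± 0.12.

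Of 41 G2/M and mitosis genes 0 passed, but 37 had a positive change, with a median of 0.14 (0.12 to 0.16 under the other scalings), and at an unadjusted p under 0.05 limma gave 8 higher and 0 lower. The list leaves out ZWILCH, the kinetochore gene called lower above (-0.38 ± 0.071). Over all genes tested 57.6% had a positive change. The 8 higher genes are 19.5% of the list, against 6.14% higher and 3.34% lower over all genes tested at that unadjusted p. The greatest positive changes were KIF23, a kinesin of the central spindle (286.8, 339.3 and 259.3 at 0 h, 400.6, 390.2 and 399.9 at 8 h, 0.42 ± 0.15, limma adjusted p = 0.35), and the kinase gene AURKB (0.31 ± 0.16). HMMR, a spindle-associated protein, had a change of -0.22 ± 0.22 and PTTG1, securin, of -0.07 ± 0.13. The proliferation marker MKI67 changed by 0.27 ± 0.12 and BIRC5, survivin, by 0.14 ± 0.14. The list's median was 0.22 without 8 h replicate 3.

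Of 29 genes activated by p53, 0 passed, with a median of 0.08. At an unadjusted p under 0.05 limma gave 2 positive (6.9%) and 1 negative change (3.45%), against 6.14% and 3.34% of all genes tested. SESN1, a stress-induced inhibitor of mTORC1 signalling, read 92.8, 88.5 and 84.4 at 0 h and 117.9, 106.1 and 127.5 at 8 h. All 3 were higher, as in 10.3% of all genes tested, yet the change of 0.35 ± 0.12 did not pass (limma adjusted p = 0.32). SESN2 changed by 0.26 ± 0.15, MDM2, the ubiquitin ligase of p53, by 0.18 ± 0.11, BAX by -0.08 ± 0.18, PMAIP1 by -0.19 ± 0.088 and ZMAT3 by -0.33 ± 0.29, the last with 350.0 and 322.0 on 8 h replicates 1 and 2 and 90.4 on replicate 3. DDIT4, an inhibitor of mTORC1, read 160.1, 160.5 and 103.1 at 0 h and 218.8, 202.8 and 171.2 at 8 h (0.46 ± 0.19), and TXNIP, which binds thioredoxin, 85.2, 74.2 and 49.4 at 0 h and 133.9, 137.2 and 86.9 at 8 h (0.66 ± 0.33), neither past the threshold (limma adjusted p = 0.43 and 0.56). In both genes the replicate 3 array was the lowest of each of these times. A fit without any replicate 3 array was added after the data were seen, so its calls are no independent evidence. There DDIT4 (0.36, limma adjusted p = 0.04) and TXNIP (0.67, adjusted p = 0.0042) passed.

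The hairpin acts through the cell's own small RNA machinery. Of 13 measured genes of that machinery 0 passed, with a median of 0.10. TNRC6C, a partner of Argonaute in silencing, read 189.2, 168.7 and 209.9 at 0 h and 254.9, 265.0 and 284.1 at 8 h. All its 8 h arrays lay above all 0 h arrays, as in 10.3% of all genes tested. Its change of 0.47 ± 0.1 lay just outside the threshold (limma adjusted p = 0.058). Its paralog TNRC6B changed by 0.34 ± 0.084 (adjusted p = 0.11), and XPO5, which exports precursor hairpins from the nucleus, by -0.17 ± 0.081, with PRKRA, a Dicer partner, at -0.16 ± 0.086. Of 11 measured genes of the interferon response and RNA sensing, which double-stranded RNA can induce, 0 passed. At an unadjusted p under 0.05 limma gave 1 higher (9.09%, against 6.14% of all genes tested). It was USP18, named after its values were seen, with mean signals of 804.1 at 0 h and 1014 at 8 h (0.34 ± 0.14). The median was 0.03. RIGI, the sensor RIG-I, changed by 0.34 ± 0.19, IFI44L by 0.40 ± 0.19, IFI6 by -0.20 ± 0.13 and ISG15 by -0.16 ± 0.14, and apart from IFI6 these were dim, at 10.2 to 50.3 on the 6 arrays. Another 18 of the 29 listed genes were not measured above the filter.

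Lists around the called genes held few called members, and their medians lay between -0.04 and 0.00. No set test was run. Of 33 late endosome and lysosome genes 3 were lower (RAB7A, LIPA and PIP4P2), with a list median of 0.00, and of 32 RAB GTPases 1 was lower (RAB7A) and 1 higher (RAB24), with RAB35 at -0.38 ± 0.13 and RAB5B at 0.27 ± 0.12. Of 35 proteasome subunits and assembly factors 1 was lower (PSMD10), and the remainder lay between -0.14 and 0.09. Of 17 citric acid cycle enzymes 1 was lower (IDH3A), with the succinyltransferase DLST at -0.37 ± 0.27 and citrate synthase CS at 0.24 ± 0.11. Over all genes tested 0.357% were called lower and 0.0934% higher. These 4 lists include RAB7A, LIPA, PIP4P2, PSMD10, IDH3A and RAB24 with their earlier results known, so the counts are no independent evidence. Of 39 listed mitochondrial ribosome and translation genes 0 passed (median -0.04), with MRPL12 at -0.26 ± 0.17 and MRPS18A at 0.18 ± 0.11. That list leaves out MRPL48, the mitochondrial ribosomal protein gene called lower above (-0.58 ± 0.1).

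The remaining lists held 0 called genes. Of 24 ATF4 and endoplasmic reticulum stress genes the median was 0.04, with the amino acid transporter subunit SLC3A2 at -0.28 ± 0.13 and DDIT3 (CHOP) at -0.19 ± 0.23. The 27 immediate early genes had a median of 0.02 and 0 at an unadjusted p under 0.05 in either direction (limma), with MAFF at -0.38 ± 0.24 and CCN1 at 0.30 ± 0.15. Of 24 apoptosis regulators (median -0.02) limma gave 4 a negative (16.7%) and 0 a positive change with an unadjusted p under 0.05. Over all genes tested 3.34% were lower and 6.14% higher at that p. The 4 were led by BIRC2, an inhibitor of apoptosis (-0.34 ± 0.095), and BAD, which promotes it (-0.33 ± 0.13). Of 27 DNA repair and checkpoint genes (median 0.06), RPA2, of the single-strand binding complex, read 1055.3, 1010.3 and 989.5 at 0 h and 788.4, 723.8 and 827.1 at 8 h. All its 8 h arrays lay below all 0 h arrays, as in 5.54% of all genes tested. Its change of -0.38 ± 0.095 did not pass (limma adjusted p = 0.11). TIMELESS, of the replication fork, changed by 0.30 ± 0.089. The 27 ribosome biogenesis and growth genes activated by MYC proteins had a median of -0.04, with the spermidine synthase SRM at -0.20 ± 0.11 and CAD, of pyrimidine synthesis, at 0.22 ± 0.11. The 28 hypoxia and glycolysis genes had a median of 0.01, led by the glucose transporter SLC2A3 (0.43 ± 0.14) and PDK1 (0.39 ± 0.12), and the 18 cholesterol synthesis genes a median of 0.05, led by SREBF1 (0.45 ± 0.23) and mevalonate kinase MVK (0.38 ± 0.11). The 11 reference genes had a median of -0.03, with GAPDH at -0.05 ± 0.11, ACTB at 0.03 ± 0.1 and B2M at -0.22 ± 0.08.

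**Figure D4:**
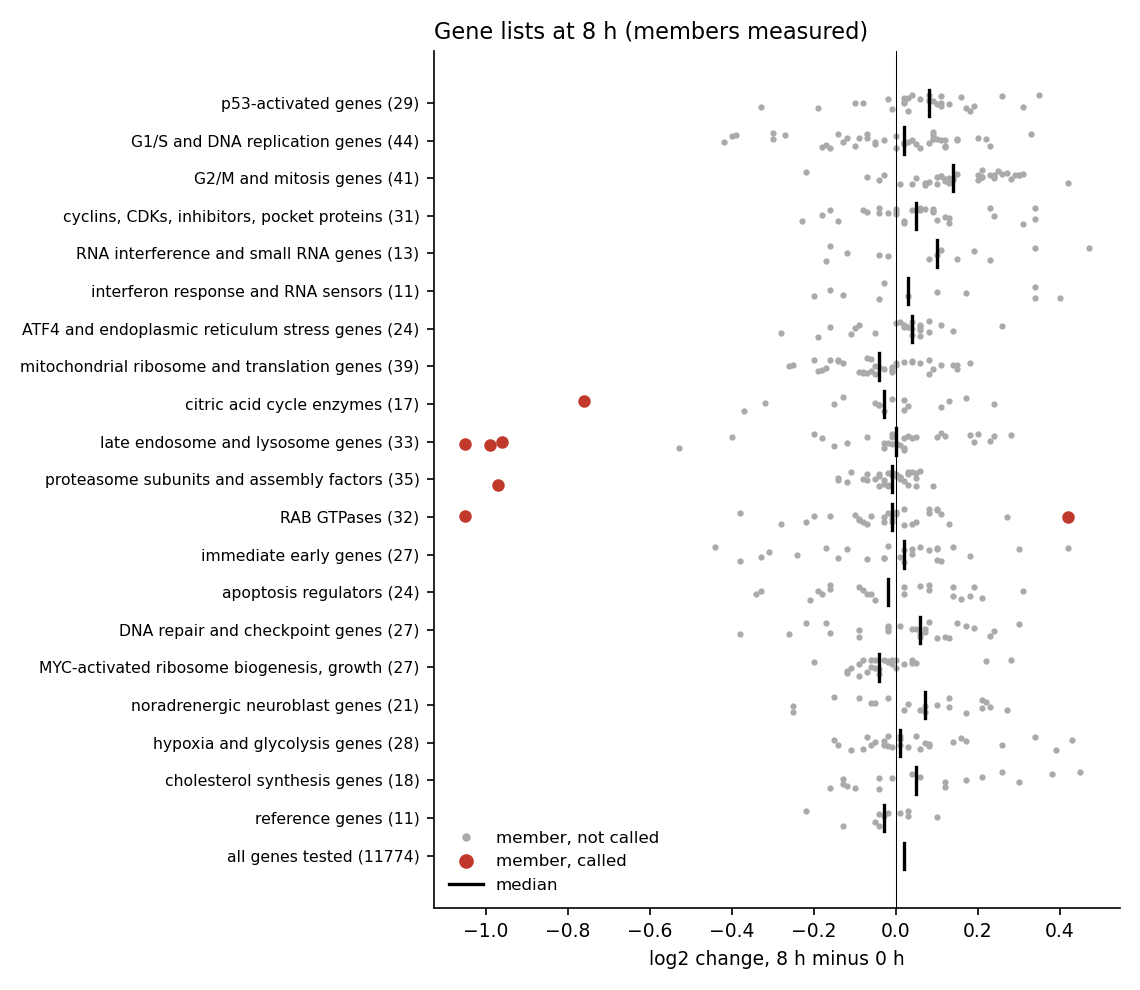
Log2 change at 8 h of the measured members of 20 gene lists, with the number measured in brackets, 1 point per gene, red where the gene passed an adjusted p of 0.05, and a black bar at the list's median. Medians lie between -0.04 and 0.14, against 0.02 for all genes tested (lowest row, median only), and the red points are RAB7A in 2 lists, LIPA, PIP4P2, PSMD10, IDH3A and RAB24.

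The labelled cell type was checked on the same arrays. Of 14 noradrenergic neuroblastoma markers on the array 10 had mean signals over 100, among them PHOX2A, GATA3, ISL1, CHGA and ALK. The 2 with means under 20 were TH (3.7) and STMN2 (5.3). The summed signal of all 14 ranged from 12280 to 12710 at 0 h and from 12040 to 13660 at 8 h. MYCN (mean 4473 over the 6 arrays) and GATA3 (3257) were its largest parts. MYCN, the amplified gene of this line, read 4832.6, 4410.9 and 4429.9 at 0 h and 4663.1, 4076.0 and 4424.2 at 8 h, overlapping groups with a change of -0.06 ± 0.082. Of 21 noradrenergic neuroblast genes 0 passed and the median was 0.07, with HAND1 at 0.27 ± 0.12 and SCG2 at -0.25 ± 0.21. Markers of Schwann cells (3 on the array), immune cells (5) and endothelium (5) all had means under 20, as did 4 of 5 epithelial and 4 of 7 fibroblast markers, and COL1A1 alone among the fibroblast markers exceeded 100. Of 10 mesenchymal neuroblastoma markers VIM, FN1, YAP1 and SNAI2 exceeded 100, and 5 (PRRX1, FOSL1, CD44, WWTR1 and NOTCH2) had means under 20. The summed signals of all 10 were 4674 to 5258 at 0 h and 4588 to 5124 at 8 h. In these bulk samples fewer cells of a kind and less RNA per cell cannot be told apart.

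The genes called at 8 h were followed into the later arrays. The later comparisons share the 0 h arrays, and the step from 8 h to 24 h shares the 8 h arrays that chose the genes, so their values are given side by side. CDK2 changed by -1.16, -1.36, -1.94 and -2.45 against 0 h at 8, 24, 48 and 72 h, and its step from 8 h to 24 h, -0.20 ± 0.14, did not pass (limma adjusted p = 0.47). The other lower genes had median changes of -0.64, -1.04, -0.97 and -1.02 at these times. Of the 42 lower genes, 25 were called lower again in the step from 8 h to 24 h, 0 higher, and 17 were not called, where 3.24% of all genes tested were lower and 2.54% higher in that step. PSMD10 had the greatest step among them, -1.29 ± 0.13, and stood at -2.72 at 72 h. ARF4 followed with -1.13 ± 0.082, KIFBP with -0.94 ± 0.087 and SPIN4 with -0.90 ± 0.13.

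Some lower genes stood nearer to their 0 h level, or above it, at 72 h. HS6ST2 stood at -0.73, -0.63, -0.26 and 0.27 at 8, 24, 48 and 72 h, the last above 0 h (limma adjusted p = 0.02). NPTN stood at -0.75, -0.83, -0.45 and -0.25, PLEKHA8 at -0.52, -0.63, -0.12 and -0.11, and CFAP70 at -0.88, -0.63, -0.15 and -0.21, with limma adjusted p of 0.063, 0.41 and 0.34 at 72 h. RAB7A stood at -1.05, -1.45, -1.19 and -0.97 and LIPA at -0.99, -1.35, -0.80 and -0.80, both past the threshold at every time. ZWILCH went on from -0.38 to -0.88, -1.69 and -2.17.

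The 11 higher genes had median changes of 0.56, 0.51, 0.64 and 0.89 at 8, 24, 48 and 72 h. TRIM46 stood at 0.60, 0.43, 0.92 and 1.30, and RAB24 at 0.42, 0.53, 0.54 and 0.89. NDRG4 was the one higher gene with a called step from 8 h to 24 h, -0.63 ± 0.085 (limma adjusted p = 1.8e-04), and stood at 0.40, -0.23, -0.27 and 0.11.

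Several genes without a call at 8 h stood further from 0 h at 48 and 72 h. At 8, 24, 48 and 72 h, CDKN1A stood at 0.31, 1.27, 1.61 and 1.88, SESN1 at 0.35, 1.41, 1.92 and 2.11, and TXNIP at 0.66, 1.24, 2.15 and 1.82. At the same times CDK1 stood at 0.24, -0.14, -1.75 and -3.19, CCNA2 at 0.13, -0.25, -1.56 and -2.40, and E2F1 at 0.00, 0.12, -1.45 and -1.64. GINS3 stood at -0.40, -1.31, -2.08 and -2.78, and B2M, the light chain of MHC class I, at -0.22, -1.25, -1.53 and -1.74. All 8 genes passed at 48 and 72 h (limma adjusted p of 1.7e-04 or less).

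**Figure D5:**
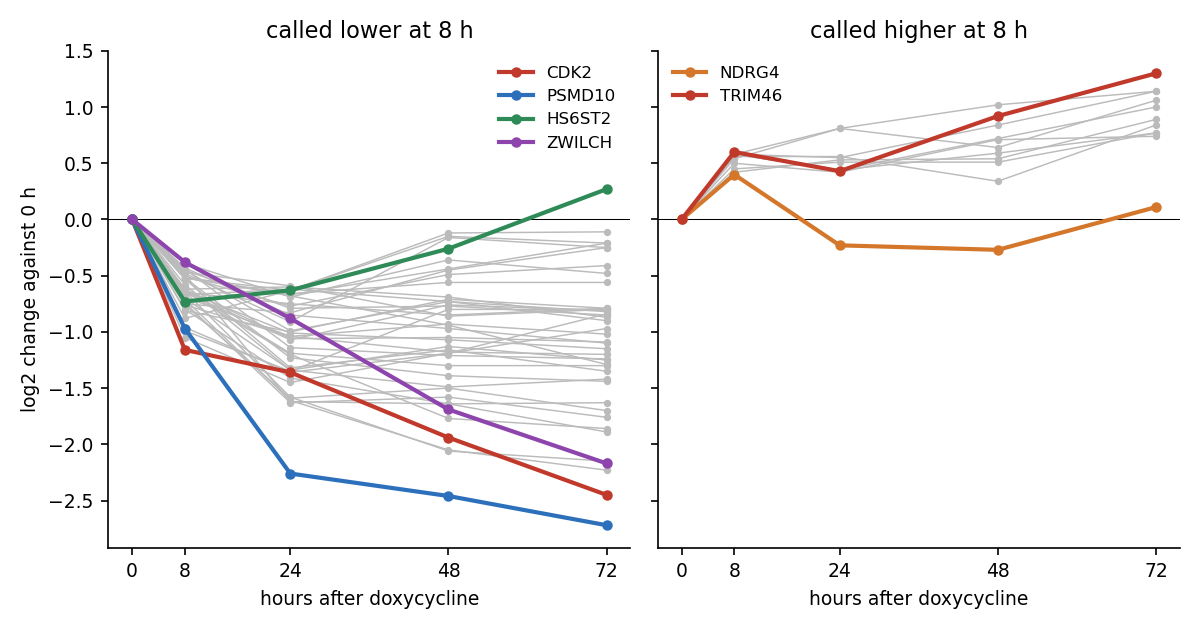
Log2 change against the 0 h arrays at 8, 24, 48 and 72 h for the 42 genes called lower at 8 h (left) and the 11 called higher (right), 1 line per gene, set to 0 at 0 h. PSMD10 reaches -2.72 and CDK2 -2.45 at 72 h, HS6ST2 ends at 0.27, and NDRG4 crosses 0 between 8 h and 24 h.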

How the data were processed

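Per the submitters' processing notes the authors used MAS5 and GCOS, without stated versions. As deposited, each of 54675 probe sets has a linear signal intensity on each of 15 arrays (3 at each of 5 times). Its trimmed mean (2% off each end) was equal on all arrays, so values were used as deposited. Of the probe sets, 62 are controls, 41091 name 1 gene in the platform annotation, 1801 several and 11721 none. Symbols of 41037 were updated through RefSeq by Entrez ID, and 54 kept the platform's.

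Values were taken as log2(signal + 16). Probe sets with a mean log2 at or above the median entered (a signal of about 16.6), and for each gene the probe set with the highest mean stood. All 15 arrays were fitted together, to share 1 estimate of spread, in R 4.3.3 by limma 3.58.1, with an intensity trend in the variance prior, with Benjamini-Hochberg adjustment over the 11774 genes or the 27307 probe sets. "Called" and "passed" mean an adjusted p under 0.05. The number of arrays limits precision. The fit was tested on simulated data. Tables, motif searches and figures used Python 3.11.15, pandas 2.3.3, scipy 1.17.1 and matplotlib 3.10.9.

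Named are all genes called, per list the 2 greatest positive and 2 greatest negative changes (a selection of them is printed), 25 sentinel genes, and of called probe sets of other genes the 5 greatest rises and falls. The comparison, members and lists were chosen with earlier results of these data known. Alternatives changed the pseudocount (1 or 64), scaling (quantile, or centring on the median), filter (none, or the brightest 25%), probe sets per gene, arrays in the fit, variance prior, array weights and a replicate block, and left out each array. A fit without any replicate 3 array was added after the data were seen. The hairpin's target sequence and transcript sequences were not analysed here.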

Additional observations from a re-analysis of the deposited data

Results flagged for a closer look

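In 26 of the 53 genes called at 8 h the following step, 24 h minus 8 h, was itself called by limma, so the change at 8 h and at 24 h differed. The step shares the 8 h arrays that chose the genes. In the 25 lower genes the log2 steps were RAB7A (-0.4), LIPA (-0.35), PSMD10 (-1.29), DCPH1 (-0.61), IDH3A (-0.83), TOMM20 (-0.88), SPIN4 (-0.9), BAG3 (-0.63), HMGN4 (-0.35), ANKRD46 (-0.42), KIFBP (-0.94), SLC44A1 (-0.56), TRAK2 (-0.44), EID1 (-0.57), MRPL48 (-0.77), TMEM263 (-0.78), GOLGA7 (-0.7), ARF4 (-1.13), DNAJC6 (-0.43), SGTB (-0.54), RYBP (-0.34), TSPAN3 (-0.7), NUDT19 (-0.41), AASDHPPT (-0.3), ZWILCH (-0.51). Of the higher genes, NDRG4 had a step of -0.63, against a change of 0.40 at 8 h. The Dap spike-in, a control outside the main measurement, read 1142.2 on 8 h replicate 3, above the 490.8 to 519.9 of the 0 h arrays and the other 8 h arrays.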

How the results depend on the processing

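CDK2 kept its direction and passed in each alternative that gave a value, at -0.90 to -1.28. It is not among the brightest 25%. Called genes, 53 in the fit reported, fell to between 20 and 47 when 1 array was left out, and to 19 to 40 of the 53 themselves. They rose to 102 (37 higher, 65 lower) with array weights and to 88 (25 higher, 63 lower) without any replicate 3 array. Called probe sets, 66, were 24 in a fit of the 0 h and 8 h arrays alone, 110 with array weights, and 22 to 53 without 1 array. Called members of the gene lists, 6, were 11 with array weights and 10 without any replicate 3 array. Quantile scaling gave 5 higher and 38 lower genes, centring 6 and 37, and no filter 3 and 34. Against 26 called steps between 8 h and 24 h, the alternatives run gave 20 to 27. None of the values compared changed direction where called. Residual correlations between 0 h and 8 h arrays of equal replicate number were 0.10, -0.08 and 0.09, against -0.13 to 0.07 for unequal numbers. These few values cannot decide whether equal numbers pair the arrays. With the replicate number as a block 57 genes and 87 probe sets passed, CDK2 among them at -1.16. The cause of these shifts was not tested.

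With 3 arrays a group, a gene's standard error of about 0.12 leaves small changes undetected, and dim genes near the filter carry only compressed changes. No arm separates doxycycline from the hairpin, and the cells are 1 clone.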
